A study of Sus scrofa with 31 samples.

Results

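Cells washed out of the lung and sorted as alveolar macrophages were set against whole hippocampal tissue. The comparison asks which genes a macrophage from outside the brain shows above the mixed cells of the brain, and which brain genes it lacks. Its answer holds for the lung libraries as a whole, which also showed lymphoid and granulocyte genes. The comparison uses 7 of the 31 RNA libraries of the series. The 3 lung libraries came from pigs 12821, 12829 and 12984, the 4 hippocampal tissue libraries came from pigs 12821, 12829, 12847 and 12872, and values below follow these orders. A further 24 libraries of sorted microglia, 8 each from the cerebellum, the frontal cortex and the hippocampus, were used to ask whether the brain's own macrophages share the genes found. All animals were male piglets 24 to 26 days old (7 to 8 kg, 1 per litter) born to Large White × Landrace sows inseminated with pooled Duroc semen, from a wider imaging study under sedation. No group received an agent of its own, and all share the sedation, anaesthesia and imaging. Litters were born into standard or freer housing, and which pig had which is not given in the sources used here. The lung cells were taken by lavage and sorted as F4/80+ with low CD163. The microglia were sorted from dissociated brain as CD11b high with low CD45. The tissue was not dissociated or sorted. RNA of sorted cells and of tissue was also extracted with different kits from very different amounts, so the source of the RNA and its preparation cannot be told apart.

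Macrophages of all organs share a core of surface receptors, phagocyte oxidase subunits, complement parts and lysosomal proteases, much of it under the transcription factor PU.1 (gene SPI1). Alveolar macrophages live on the air side of the lung, take up surfactant lipid and depend on granulocyte-macrophage colony-stimulating factor and PPARγ. Microglia are the macrophages of the brain parenchyma, depend on signals through the CSF1 receptor and carry the transcription factor SALL1. Whole hippocampus holds neurons, astrocytes, oligodendrocytes, vessels and a small share of microglia, so a macrophage gene in the tissue is diluted by all other cells. In bulk RNA of this kind, fewer cells of a type and less RNA per cell cannot be told apart.

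Counts per gene summed to 39736805 to 43477403 in the lung libraries, 36656624 to 40499293 in the tissue libraries and 18438494 to 36503520 in the microglia. Levels are given in CPM, the counts of a gene relative to the total of its library after TMM scaling. Spearman correlations of levels across genes were 0.953 to 0.971 between lung libraries, 0.963 to 0.985 between tissue libraries and 0.159 to 0.212 between the groups. Tissue of pig 12829 stood apart in myelin genes, with a summed level of the oligodendrocyte list of 28340 CPM against 14660 to 16330 CPM in the other 3, so MBP, MOG and the count of the oligodendrocyte list are also given without it.

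Of 31907 genes, 11011 exceeded 10 CPM in every sample of one or both groups and were tested (edgeR quasi-likelihood test, Benjamini-Hochberg adjusted p). A gene was called when its adjusted p was under 0.01 and its fold change over 4. By this rule 1405 genes (12.8% of those tested) were higher in the lung libraries and 2479 (22.5%) were higher in tissue, 35.3% in either direction. These shares are the background for every count of a gene list below. The median log2 fold change was 3.46 for the first set and -5.60 for the second, against -0.05 for all genes tested. In all 1405 and all 2479 genes the groups did not overlap, which was so for 38.4% of the tested genes with the lung libraries above and 41.4% with the tissue above. A further 2233 genes higher in the lung libraries and 1542 higher in tissue had an adjusted p under 0.01 but a fold of at most 4. Only 6 of the genes higher in the lung libraries had no count in any tissue library, whereas 284 of the genes higher in tissue had no count in any lung library.

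**Figure D1:**
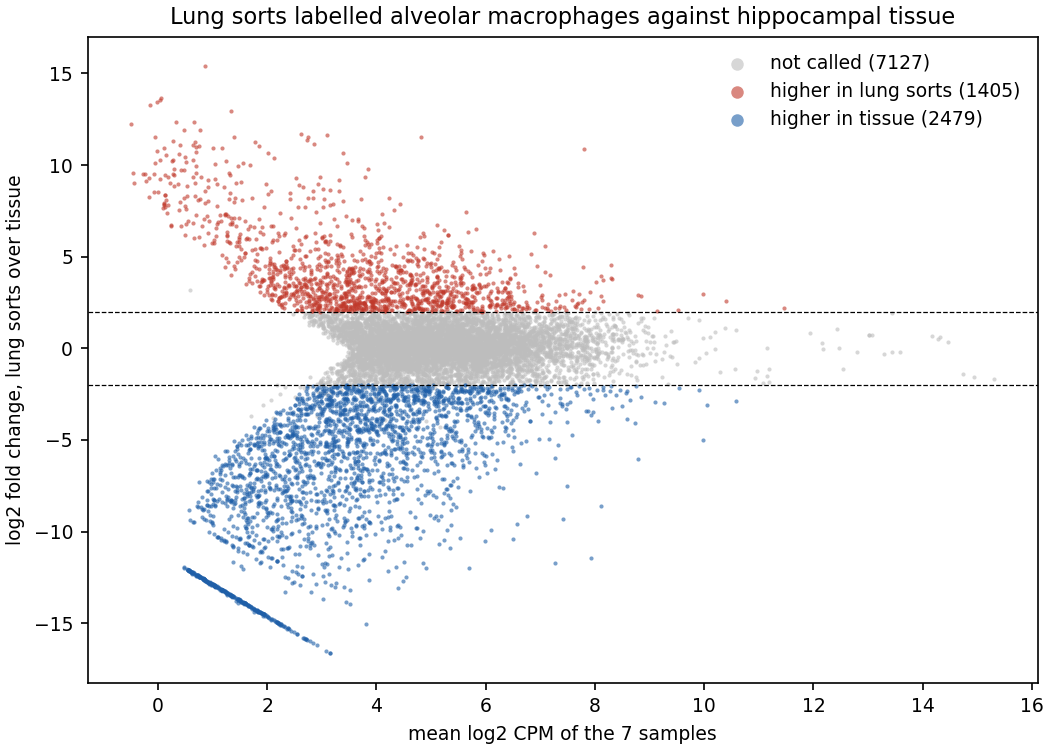
Each point is 1 of the 11011 genes tested, with its mean log2 CPM over the 7 samples on the x axis and its log2 fold change, lung libraries over tissue, on the y axis (dashed lines at a fold of 4). The 2479 genes higher in tissue reach further from 0 than the 1405 higher in the lung sorts, and the straight band at the lower left holds the genes with no count in any lung library, whose fitted values have no meaning as a size.

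The label alveolar macrophage was first checked against a list of 20 markers. Of these, 15 were matched to a gene, 10 were tested and 9 were higher in the lung libraries. Microglia shared part of this, since by the classes defined below 4 of the 9 were common, 2 graded and 3 lung-specific. MRC1, the mannose receptor, stood at 214, 231 and 341 CPM in the lung libraries and at 3.82, 1.77, 1.99 and 3.14 CPM in tissue, or 6.61 as a log2 fold change (SE 0.35, adjusted p = 2.19e-06). CD163, the haemoglobin scavenger receptor and one of the sort antigens, stood at 336, 297 and 573 CPM against 3.11, 1.82, 1.59 and 2.21 CPM (log2 fold change 7.53, SE 0.38). The gate had asked for low CD163 protein. ADGRE1, which encodes the F4/80 antigen used for the sort (chromosome 2, 72217036 to 72305925, Sscrofa11.1), had 63.3, 75.7 and 142 CPM in the lung libraries. It had 2 counts in all 4 tissue libraries together, which gives a ratio of 6520 (95% exact counting interval 1810 to 53900), and none in any microglia library. Every lung library lay above every tissue library for all of these genes.

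Genes of the colony-stimulating factor and PPARγ axis followed. Of the 9 markers called, 4 were common with microglia and 2 graded. A level above tissue here therefore does not by itself set lung libraries apart from microglia. CSF2RB, the signalling chain of the granulocyte-macrophage colony-stimulating factor receptor, reached 151, 258 and 154 CPM against 4.61, 1.74, 1.66 and 3.68 CPM in tissue (log2 fold change 6.0, SE 0.45), and CSF2RA, the binding chain, had a log2 fold change of 6.10. PPARG, the nuclear receptor of lipid-handling macrophages, stood at 16.2, 14.8 and 56.9 CPM against 0.337 to 0.397 CPM (log2 fold change 6.35, SE 0.61), with the third lung library well above the others (log2 fold change 5.38 without it). SIGLEC1, a sialic acid-binding receptor, had 50.5, 38.0 and 46.5 CPM against 3.48 to 3.80 CPM (log2 fold change 3.63, SE 0.16). CD9, a tetraspanin, was not called at 94.0, 97.9 and 242 CPM against 83.8 to 166 CPM (log2 fold change 0.35, SE 0.40, adjusted p = 0.448).

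Other macrophage markers had no count in the lung libraries or were low in them. MARCO, a scavenger receptor of alveolar macrophages, had no count in any of the 31 libraries. Its absence therefore cannot be told apart from reads that were not counted. FABP4, a fatty acid-binding protein under PPARγ, had no count in the lung libraries and 0.637 to 1.34 CPM in tissue. MSR1, a class A scavenger receptor, stood at 6.27 to 11.5 CPM in lung libraries and 0.179 to 0.702 CPM in tissue, and lysozyme (LYZ) at 6.07 to 28.0 CPM and 0 to 0.122 CPM. The chitinase CHIT1 had 41 counts in the lung libraries and 2 in tissue, a ratio of 22.6 (95% exact counting interval 5.86 to 193), with 0.138, 0.949 and 0 CPM in the lung libraries. All 3 were under the filter. The lymphoid list was also higher in the lung libraries than in tissue. Of its 33 genes, 28 were matched and 27 tested, and 27 of 27 were higher in the lung libraries (20 of them with the pig as a block), with a median log2 fold change of 8.14.

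CD3E, a chain of the T cell receptor complex, had 219, 363 and 135 CPM in the lung libraries against 0.0897 to 0.245 CPM in tissue (log2 fold change 10.66, SE 0.49). The B cell antigen MS4A1 had 50.8, 29.3 and 28.6 CPM and 2 counts in all tissue, a ratio of 2360 (95% exact counting interval 654 to 19500). JCHAIN, the joining chain of secreted antibodies, had 2236, 554 and 407 CPM against 5.37 to 7.02 CPM, and its log2 fold change of 7.41 (SE 0.69) was 6.20 without the lung library of pig 12821. The T cell kinase ZAP70 and the coreceptor CD5 had log2 fold changes of 8.81 and 9.56. CD79A, a chain of the B cell receptor, was 3.27 higher on the log2 scale.

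Granulocyte genes were likewise present. Of the 19 genes of that list, 13 were matched and 5 tested, and 5 of 5 were higher in the lung libraries (4 with the pig as a block, where CXCR2 was not called). S100A12, a calcium-binding protein of neutrophils and monocytes, had 162, 171 and 450 CPM against 0 to 0.116 CPM (log2 fold change 12.94, SE 0.83, from 4 counts in tissue). S100A9, its neighbour on chromosome 4, had 3 counts in all tissue and a ratio of 4580 (interval 1570 to 22200). The neutrophil granule enzyme MPO had no count in any lung library.

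The summed level of the alveolar macrophage list was 1058, 1318 and 1909 CPM in the lung libraries, 111 to 190 CPM in tissue and 202 to 396 CPM in microglia. The lymphoid list summed to 5345, 3837 and 2486 CPM, against 54.8 to 68.8 CPM in tissue and 164 to 403 CPM in microglia, so the lung library lowest in the macrophage list was highest in the lymphoid one. The granulocyte list summed to 404, 594 and 869 CPM against 6.10 to 7.38 CPM in tissue. Lung epithelial genes summed to 237, 292 and 182 CPM against 140 to 161 CPM in tissue and 78.8 to 283 CPM in microglia. Of 3 tested genes 1 was higher, the aspartic protease NAPSA (log2 fold change 3.10). NAPSA was common by the classes defined below, with microglia also called higher than tissue. SFTPC and SFTPB, surfactant proteins of alveolar epithelial cells, were under the filter with 40.2, 99.5 and 8.38 CPM and with 11.2, 32.6 and 0.490 CPM, and had at most 0.827 CPM and 0 counts in tissue. The libraries are therefore called lung sorts below, and the part of other cells in each difference was not tested.

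**Figure D2:**
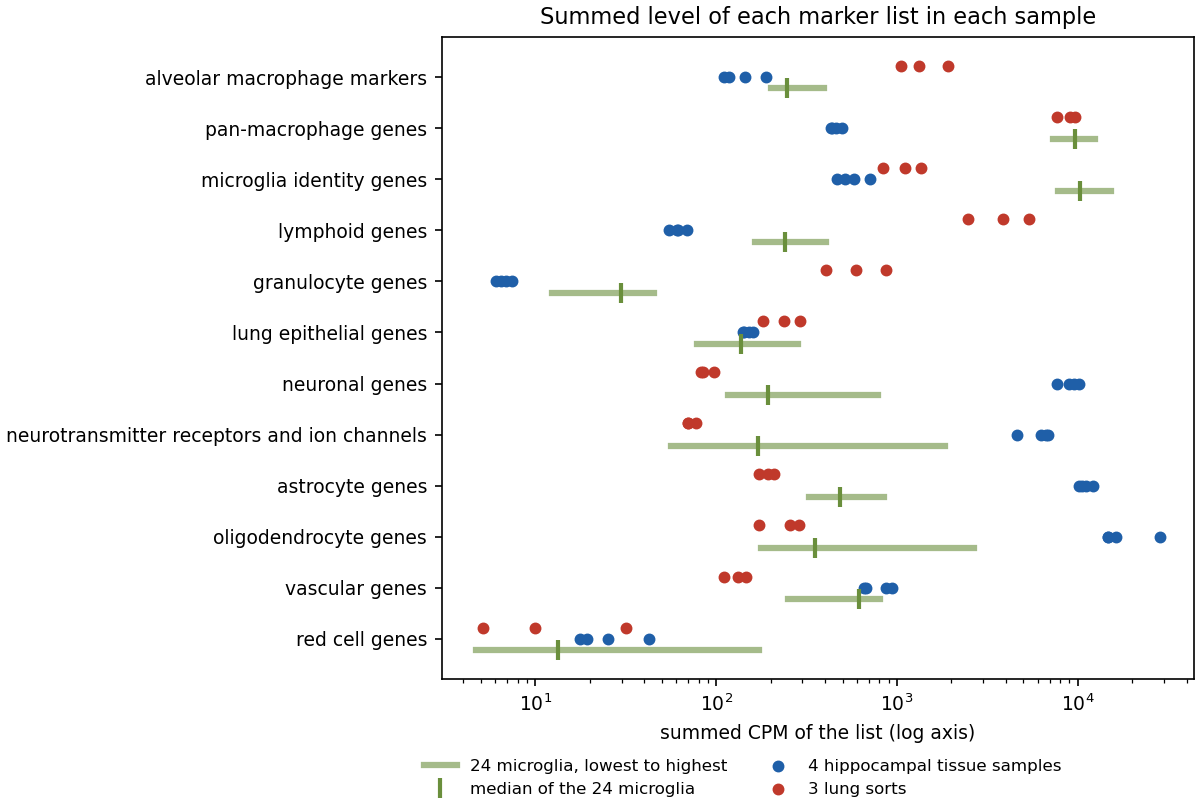
Summed CPM (log axis) of 12 marker lists in each of the 3 lung sorts (red) and 4 tissue samples (blue), with the range (bar) and median (tick) of the 24 microglia. The pan-macrophage sums of lung sorts (7713 to 9642 CPM) lie inside the microglia range and above tissue, the lymphoid and granulocyte sums lie above both, and the neuronal and glial sums lie far below tissue.

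The 1405 genes higher in the lung sorts were then sorted by the microglia, using the contrasts of microglia with tissue and of lung sorts with microglia in 1 fit of the 5 groups. In that fit, 11.3% of 11633 genes were higher in microglia than in tissue and 8.25% were higher in lung sorts than in microglia. A gene was named common when microglia also exceeded tissue and lung sorts did not exceed microglia, graded when both steps were called, lung-specific when lung sorts exceeded microglia and microglia did not exceed tissue, and unresolved when neither step was called. Common genes numbered 596 (42.4% of the 1405), graded genes 72 (5.12%), lung-specific genes 499 (35.5%) and unresolved genes 238 (16.9%). With the pig as a fixed block in edgeR, lung-specific genes numbered 253. The names state the calls and nothing of the cells behind them. Of the common genes, 500 had over 10 CPM in all 24 microglia libraries, and in 575 every microglia library lay above every tissue library. By the same thresholds, 27 common genes were higher in microglia than in lung sorts. Of the lung-specific genes, 210 had a mean under 1 CPM in microglia, 55 were under 1 CPM in all 24 libraries and 32 were over 10 CPM in all 24. Median log2 fold changes were 3.35 over tissue and -0.09 over microglia for common genes, 6.98 and 3.22 for graded genes, 4.39 and 5.13 for lung-specific genes, and 2.47 and 1.24 for unresolved genes, values that the classing itself partly sets.

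**Figure D3:**
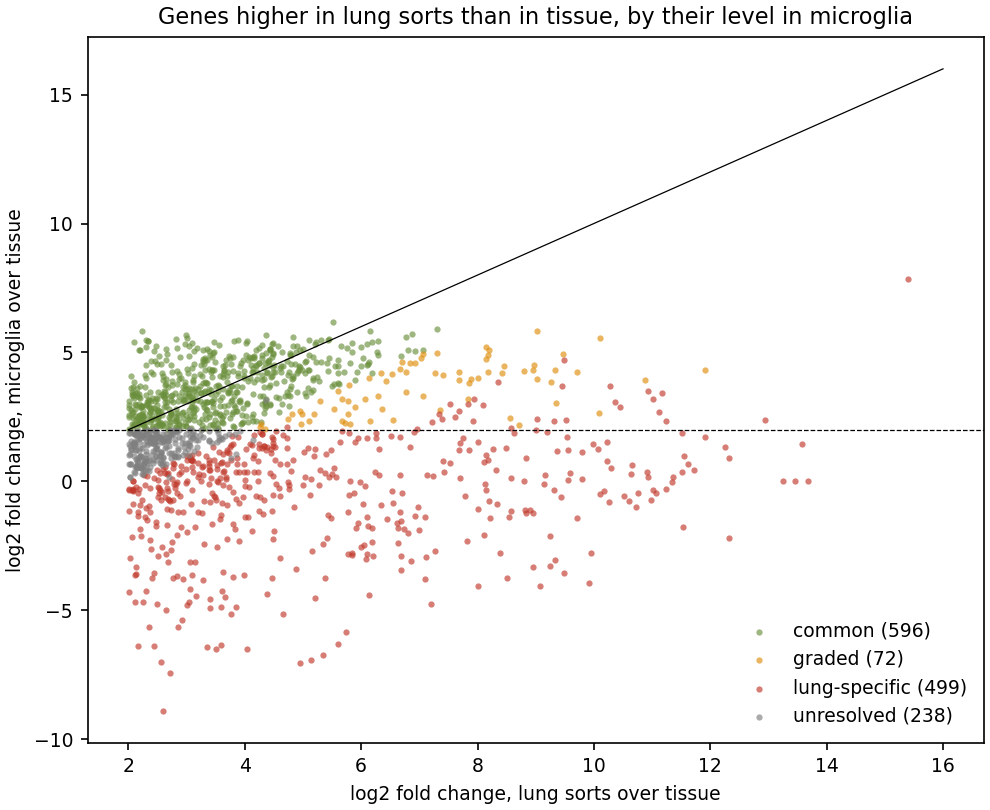
Each point is 1 of the 1405 genes higher in lung sorts than in tissue, with that log2 fold change on the x axis and the log2 fold change of microglia over tissue on the y axis (solid line: equal values, dashed line: a fold of 4). Common genes (596) scatter around the solid line, and 27 of them were called higher in microglia than in lung sorts. Graded genes (72) lie between the lines, and lung-specific genes (499) mostly around or under 0 on the y axis.

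The common genes held most of the general macrophage list. Of its 26 genes, 24 were matched and 22 tested, and 19 were higher in lung sorts, with 16 common, 2 graded and 1 lung-specific. PTPRC, the leukocyte phosphatase CD45, had 1326, 1319 and 1585 CPM in lung sorts and 20.5, 19.4, 16.7 and 16.6 CPM in tissue, or 6.27 as a log2 fold change (SE 0.17, adjusted p = 3.01e-07), and 430 to 817 CPM in microglia. SPI1 itself had 113, 163 and 210 CPM against 10.1 to 11.7 CPM (log2 fold change 3.88, SE 0.22) and 125 to 256 CPM in microglia. ITGB2, the shared chain of the leukocyte integrins, had 446, 569 and 565 CPM against 15.5 to 19.6 CPM (log2 fold change 4.89), and CD14, the lipopolysaccharide co-receptor, had 48.0, 132 and 91.4 CPM against 3.77 to 6.22 CPM (log2 fold change 4.24). For these 4 genes lung sorts and microglia differed by less than a fold of 4. TYROBP, CD53, LAPTM5, CYTH4, CD68 and the transcription factor RUNX1 were also common, with log2 fold changes of 3.68 to 5.11 over tissue. That of CD68 was 2.74 without the lung sort of pig 12984, which was the highest.

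Exceptions within that list were few. CORO1A and LCP1, which bind actin in leukocytes, were graded, with 2.15 and 2.10 on the log2 scale over microglia beside 5.28 and 5.60 over tissue. CSF1R, the receptor microglia depend on, was not called, with 111, 259 and 238 CPM in lung sorts and 76.9, 66.8, 57.1 and 68.7 CPM in tissue (log2 fold change 1.58, SE 0.28) while microglia had 1266 to 4359 CPM. IRF8, a factor of the myeloid lineage, was not called either at 242, 196 and 227 CPM against 68.5 to 84.3 CPM (log2 fold change 1.56, SE 0.13), and microglia had 496 to 1216 CPM. AIF1, which encodes the macrophage protein IBA1, had a log2 fold change of 1.94 (SE 0.42) that lay just under the fold threshold, and it shares positions with LST1 and NCR3. It was called without the lung sort of pig 12821 (2.20) or 12829 (2.14) or without the tissue of pig 12821 (2.02). In CSF1R, IRF8 and AIF1, lung sorts lay above tissue without overlap and below every microglia library.

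**Figure D4:**
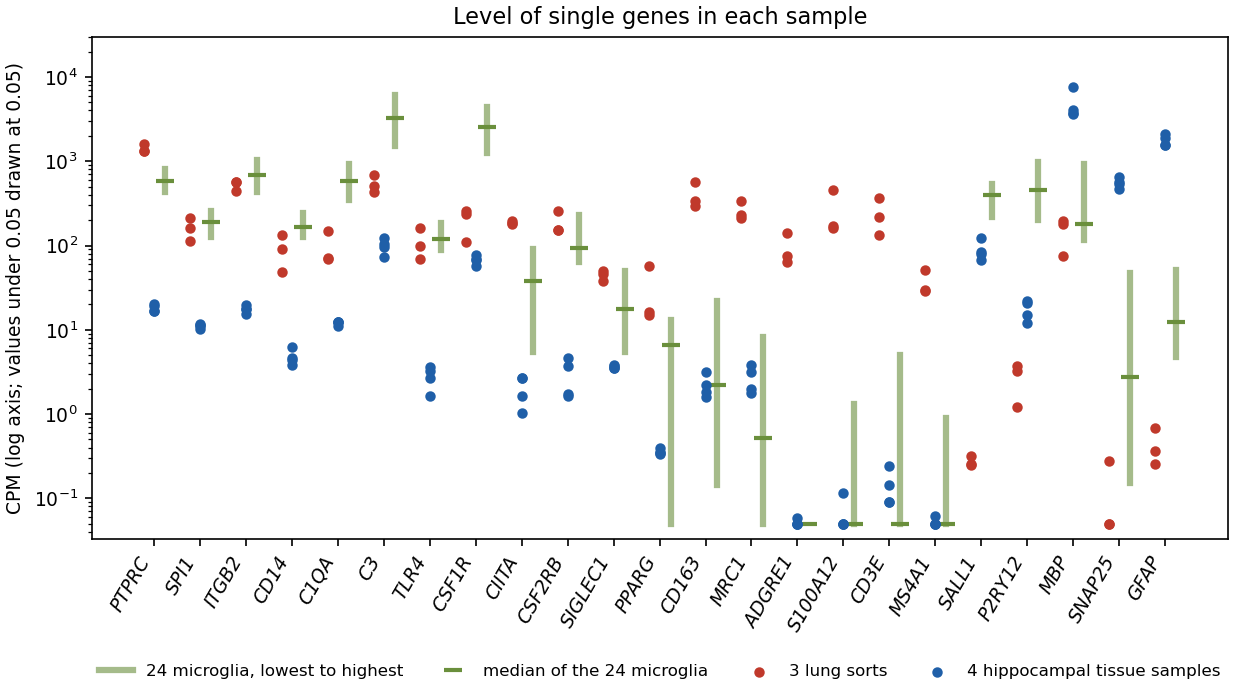
CPM (log axis) of 23 genes in each lung sort (red) and tissue sample (blue), with the range (bar) and median (tick) of the 24 microglia and values under 0.05 CPM drawn at 0.05. From left to right, microglia share the lung level of the first genes, exceed it for C1QA, C3 and CSF1R, have medians below it from CIITA to MS4A1, and lung sorts drop below tissue for the last genes.

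Complement genes were called in both directions. Of 29 genes, 22 were matched and 16 tested, with 10 higher in lung sorts (9 common) and 3 higher in tissue. Among all tested genes 12.8% and 22.5% were called, and the count higher in tissue lay near that share. C1QA, a chain of the recognition molecule C1q, had 71.8, 68.5 and 150 CPM in lung sorts and 12.4, 11.06, 12.5 and 12.5 CPM in tissue (log2 fold change 3.01, SE 0.30). C3, the central component, had 434, 513 and 680 CPM against 105, 124, 73.9 and 96.9 CPM (log2 fold change 2.44, SE 0.23). Both lay further above tissue in microglia, where C1QA had 351 to 928 CPM and C3 1525 to 6179 CPM, and lung sorts were 2.58 and 2.62 lower than microglia on the log2 scale. C1QB followed the same order, with a log2 fold change of 2.34 over tissue that was 1.94, under the threshold, without the lung sort of pig 12984. The receptor C5AR1 (log2 fold change 4.03) and the protease CFD (3.72, sharing positions with MED16) were common too. Of the genes higher in tissue, CLU (clusterin, an astrocyte product) had a log2 fold change of -9.57 and the inhibitor CFI one of -3.36, and the third was C4A.

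Sensors of microbes were mostly common. Of 39 pattern recognition genes, 30 were matched and 21 tested, with 17 higher in lung sorts (15 common) and 1 higher in tissue. TLR4, the lipopolysaccharide receptor, had 68.6, 100.0 and 163 CPM in lung sorts and 1.65 to 3.66 CPM in tissue (log2 fold change 5.30, SE 0.40), with 88.3 to 185 CPM in microglia. TLR2, TLR1 and TLR8 had log2 fold changes of 4.30, 2.19 and 6.29, and the adaptor MYD88 one of 2.59. TLR1 was 2.89 lower in lung sorts than in microglia on the log2 scale. NLRP3, the inflammasome sensor, had a log2 fold change of 2.30 that was 1.93 with the pig as a block and 1.85 without the lung sort of pig 12984. It was 3.18 lower in lung sorts than in microglia on the log2 scale. TLR5, the flagellin receptor, was higher in tissue with a log2 fold change of -4.55 but had an adjusted p of 0.172 with the pig as a block. TLR7, on the same stretch of the X chromosome as TLR8, was not called (log2 fold change 1.52).

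Most interferon-induced and antigen presentation genes that were called were common. Of 37 interferon-induced genes, 29 were tested, with 20 higher in lung sorts (17 common) and 1 higher in tissue. Among them, MX2 and IFITM1, which restrict viruses, had log2 fold changes of 3.44 and 4.36. GBP1, a guanylate-binding protein, was lung-specific, with a log2 fold change of 3.27. All 20 antigen presentation genes tested of 28 were higher in lung sorts, as 11 common, 3 graded, 2 lung-specific and 4 unresolved genes. B2M, the light chain of class I, had 1066, 1515 and 1188 CPM against 74.6, 87.7, 130 and 87.9 CPM (log2 fold change 3.72, SE 0.22) and 391 to 1952 CPM in microglia.

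Several class II genes were higher in lung sorts than in microglia. CIITA, the master regulator of class II, had 181, 195 and 185 CPM in lung sorts and 1.65, 2.66, 2.70 and 1.02 CPM in tissue (log2 fold change 6.54, SE 0.35), and at 5.38 to 90.9 CPM in microglia it was graded, 2.38 higher in lung sorts. SLA-DQA1, a class II chain, was graded with a log2 fold change of 8.98 over tissue. CD74, the invariant chain, was lung-specific by the rule with 1595, 1896 and 2191 CPM against 70.0 to 88.6 CPM, since its log2 fold change of microglia over tissue was 1.97 and just missed the threshold. SLA-DMB, a class II gene that loads peptides, was instead common, with 3.74 over tissue and 4.78 for microglia over tissue. TAP1, the peptide transporter, was unresolved for a like reason, with 3.11 over tissue, 1.96 for microglia over tissue and 1.14 over microglia.

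The subunits of the phagocyte NADPH oxidase that were called were common or graded. The subunit CYBB was not matched to a gene. Of 20 genes of the list, 12 were tested, with 9 higher in lung sorts and 1 higher in tissue (NOS1). NCF1, a cytosolic subunit, had 38.9, 36.8 and 65 CPM against 3.02 to 4.55 CPM (log2 fold change 3.64, SE 0.29) and 47.1 to 97.7 CPM in microglia. CYBA, a membrane subunit, had a log2 fold change of 3.71, and the GTPase RAC2, with 8.18 over tissue and 3.94 over microglia, was graded. The lung-specific genes were enzymes of another kind. ARG1, the arginase, had 99.8, 118 and 158 CPM in lung sorts against 0.368 to 0.521 CPM in tissue and at most 1.38 CPM in microglia (log2 fold change 8.14, SE 0.25). GPX1, a glutathione peroxidase, had a log2 fold change of 4.17, and DUOX2, a dual oxidase of epithelia, one of 4.88 that had an adjusted p of 0.0628 with the pig as a block. NOS2, the inducible nitric oxide synthase, was under the filter, at 0.413 to 1.32 CPM in lung sorts and 5.26 to 7.69 CPM in tissue.

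The stretch before the start of these genes was read for a motif of PU.1, a purine-rich 8-base word (GAGGAAGT), on both strands, and for the AP-1 word TGAGTCA. Among 13833 windows of 300 bases before a RefSeq gene start (Sscrofa11.1), 277 (2.00%) held the first word. It was found before 28 of 445 common genes (6.29%), 1 of 58 graded genes (1.72%), 8 of 408 lung-specific genes (1.96%), 4 of 185 unresolved genes (2.16%) and 34 of 2030 genes higher in tissue (1.67%). The AP-1 word was held by 3.22% of all windows and by 6.74% of common, 5.17% of graded, 3.92% of lung-specific and 2.76% of tissue windows. A match is a string of letters and not a bound site. Windows of 100 bases before 5 genes are shown because they place the word before an integrin, complement, oxidase and receptor gene that lung sorts and microglia share, and before 1 lymphoid gene that microglia hardly show. They are written along the gene, 5′ to 3′, with the word (or its reverse complement) in capitals. ITGB2 is at chr13:207544109-207544208 (minus strand), C1QC at chr6:80592349-80592448 (plus), NCF1 at chr3:11820246-11820345 (plus), TLR1 at chr8:30155455-30155554 (minus) and CD5 at chr2:10673524-10673623 (minus).
ITGB2: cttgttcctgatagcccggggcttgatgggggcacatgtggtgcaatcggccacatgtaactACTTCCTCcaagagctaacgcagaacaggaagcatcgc
C1QC: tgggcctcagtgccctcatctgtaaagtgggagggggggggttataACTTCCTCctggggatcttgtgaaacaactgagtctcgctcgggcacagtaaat
NCF1: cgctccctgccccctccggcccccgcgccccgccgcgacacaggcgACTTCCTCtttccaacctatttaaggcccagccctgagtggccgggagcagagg
TLR1: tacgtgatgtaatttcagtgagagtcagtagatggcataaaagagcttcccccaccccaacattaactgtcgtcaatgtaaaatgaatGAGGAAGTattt
CD5: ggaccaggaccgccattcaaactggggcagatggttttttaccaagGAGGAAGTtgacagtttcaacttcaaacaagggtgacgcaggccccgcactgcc
The word lies at -38 to -31 from the start of ITGB2, -196 to -189 of C1QC, -75 to -68 of NCF1, -12 to -5 of TLR1 and -98 to -91 of CD5. C1QC had 150, 164 and 416 CPM in lung sorts and a log2 fold change of 3.47, which was 2.79 without the lung sort of pig 12984.

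The lung-specific genes with the largest fitted fold changes had no or hardly any tissue counts. SLC11A1, a metal transporter of the phagosome, had 26.6, 27.9 and 61.0 CPM in lung sorts and no count in any tissue or microglia library, and was at least 428-fold higher than tissue (floor of 3 counts per library, counting error only). ADGRE3, a receptor related to ADGRE1, and MCEMP1, a membrane protein of mast cells and monocytes, were at least 499-fold and 462-fold higher. These 3 genes and CLEC17A, a lectin that was at least 185-fold higher, had adjusted p of 0.0592, 0.0475, 0.0520 and 0.157 with the pig as a block. FCN2, a ficolin that recognises microbial sugars, had 61.1, 149 and 417 CPM against 0 to 0.123 CPM (log2 fold change 11.54, SE 0.99), with a wide spread among the lung sorts (10.48 without that of pig 12984). IL2RB, the interleukin-2 receptor chain of lymphocytes, reached 528, 750 and 419 CPM and a log2 fold change of 11.17.

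UBE4A, a ubiquitin ligase used by many cells, led the whole list. It had 150, 179 and 118 CPM in lung sorts and no count in any tissue library (at least 1650-fold higher), with a microglia median of 0 and maximum of 34.9 CPM. Its place on chromosome 9 (45661090 to 45701911) does not overlap CD3E (45619730 to 45633972) but overlaps another annotated gene, LOC102167309. With the pig as a block the adjusted p of UBE4A was 0.107. How reads were divided between UBE4A and the genes around it was not tested.

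Lysosomal proteases differed from each other in the microglia. Of 39 cathepsin and lysosome genes, 33 were tested, with 15 higher in lung sorts (6 common, 2 graded, 5 lung-specific and 2 unresolved) and 1 higher in tissue (CTSV). CTSS, which trims the class II invariant chain, was common with 142, 156 and 245 CPM against 5.77 to 10.2 CPM (log2 fold change 4.48, SE 0.29) and 108 to 221 CPM in microglia. CTSD, the aspartic cathepsin, and GRN, progranulin, were common with 2.59 and 3.46. CTSC, which activates granule proteases, was lung-specific at 228, 239 and 201 CPM against 3.35 to 5.86 CPM (log2 fold change 5.64, SE 0.22), and microglia had 7.86 to 21.8 CPM. CTSH and LGMN (legumain) were also lung-specific, with 6.10 and 3.39. CTSW, a cathepsin of cytotoxic lymphocytes, was graded at 519, 816 and 449 CPM against 0.244 to 0.766 CPM (log2 fold change 10.09, SE 0.43). CTSB was not called (1.18).

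Of 35 Fc and phagocytic receptor genes, 19 were tested, with 7 higher in lung sorts, MRC1, CD163 and SIGLEC1 among them. A further 3 were higher in tissue, against 12.8% and 22.5% called among all genes. FCGRT, the neonatal Fc receptor, was common with a log2 fold change of 2.56. MERTK, a receptor for apoptotic cells, was not called at 18.0, 17.3 and 28.2 CPM against 22.9 to 32.5 CPM (log2 fold change -0.35), while microglia had 150 to 352 CPM.

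Of 43 cytokines and chemokines, 15 were tested, with 13 higher in lung sorts and 2 higher in tissue. CCL5, which attracts lymphocytes, had 245, 394 and 126 CPM against 0.149 to 1.07 CPM (log2 fold change 9.27, SE 0.76) and was graded, 5.41 higher than in microglia. Without the tissue of pig 12847, the highest, its log2 fold change was 10.37. IL1A and CCL4 were common, with 6.81 and 6.92, CCL23 was graded (8.14) and CCL24 was lung-specific (10.44, from 5 counts in tissue). IL1B1, an interleukin-1β gene of the pig, was graded with 28.7, 34.9 and 39.9 CPM against 0 to 0.122 CPM (log2 fold change 9.48, SE 0.55). CXCL8, the neutrophil attractant, was under the filter with 14.2, 6.51 and 40.7 CPM and no count in tissue or microglia. The 2 genes higher in tissue were CXCL12, a stromal chemokine with no count in lung sorts (at least 372-fold higher), and CXCL14, with a ratio of 3200 (95% exact counting interval 1090 to 15500).

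Among 45 lineage transcription factors, 37 were tested, with 22 higher in lung sorts (10 common, 3 graded, 8 lung-specific and 1 unresolved) and 2 higher in tissue. CEBPB, which drives inflammatory genes of macrophages, was common with a log2 fold change of 5.18, and EGR2 was graded with 5.72. Factors of lymphoid cells were among the lung-specific ones. ETS1 had 917, 1035 and 688 CPM in lung sorts and 21.9 to 26 CPM in tissue (log2 fold change 5.15, SE 0.17), with 0 to 21.0 CPM in microglia. IRF4 had 425, 126 and 108 CPM against 0.149 to 0.753 CPM (log2 fold change 8.90, SE 0.74), highest in the lung sort that was highest in JCHAIN (7.93 without it), and RUNX3 had a log2 fold change of 10.36.

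Cell cycle genes were higher in lung sorts in 21 of 25 tested, 16 of them lung-specific and 3 common, and none was higher in tissue. MKI67, the proliferation antigen, had 427, 457 and 326 CPM against 29.8, 35.5, 20.7 and 27.6 CPM (log2 fold change 3.82, SE 0.21) and was common, since microglia had 89.9 to 335 CPM. MCM3, a replication helicase subunit, was common (4.14), and TYMS, thymidylate synthase, was lung-specific (5.03). TOP2A, a topoisomerase, was lung-specific with 3.27, and had an adjusted p of 0.0105 with the pig as a block.

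Genes that respond to handling of cells were in part higher in lung sorts. Of 32 tested, 17 were higher in lung sorts, 13 of them common, and none was higher in tissue. The summed level of the list was not higher in sorted cells. It was 4150 to 4961 CPM in lung sorts, 4589 to 5908 CPM in tissue and 2508 to 4882 CPM in microglia. FOS and JUNB, immediate early genes, had log2 fold changes of 3.33 and 3.58, whereas the chaperones HSPA8 and HSP90AA1 were not called (-0.77 and -1.15). The lung and microglia libraries both came from sorted cells and the tissue did not, and the part of handling in the common genes was not tested.

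The lists of the brain's own cells were among the genes higher in tissue. Of the 2479, 1921 were also higher in tissue than in microglia, 32 were higher in microglia than in tissue and 526 were neither. In the neuronal list, 26 of 27 tested genes of 33 were higher in tissue and none in lung sorts, with a median log2 fold change of -9.50 when the 4 genes without a count in lung sorts are set at their bound. SNAP25, a synaptic fusion protein, had 568, 469, 655 and 534 CPM in tissue and 0.275, 0 and 0 CPM in lung sorts (log2 fold change -12.64, SE 0.80, adjusted p = 4.59e-06). NEFL (neurofilament), MAP2 (dendrites), CAMK2A (synaptic kinase) and SLC17A7 (vesicular glutamate transporter) had log2 fold changes of -9.50 to -13.10. STX1A, a syntaxin, was the one gene not called, with 32.5, 27.9 and 21.3 CPM in lung sorts and 45.3 to 80.5 CPM in tissue.

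Of the receptors and ion channels, 34 of 34 tested genes were higher in tissue (30 with the pig as a fixed block in edgeR and 27 with it as a random effect in limma-voom). GRIA1, an AMPA receptor subunit, had 719, 478, 574 and 618 CPM in tissue and 0.716, 0 and 0 CPM in lung sorts (log2 fold change -11.37, SE 1.09). GABRA2, a GABA-A receptor subunit, had 188, 150, 167 and 172 CPM in tissue and no count in lung sorts (at least 2250-fold higher). GRIN1 had a log2 fold change of -11.50. GABBR1, a subunit of the GABA-B receptor, was the mildest of those named, at 41.4, 52.2 and 58.9 CPM in lung sorts and 323 to 473 CPM in tissue (log2 fold change -3.06).

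Astrocyte genes were higher in tissue in 16 of 17 tested. GFAP, the astrocyte filament, had 1539, 2082, 1558 and 1878 CPM in tissue and 0.256 to 0.689 CPM in lung sorts (log2 fold change -12.00, SE 0.42), and the water channel AQP4 had a log2 fold change of -12.13. SLC1A2, the glutamate transporter, still had 93.7, 64.6 and 103 CPM in lung sorts (log2 fold change -4.10). ALDOC was not called, with 84.2 to 347 CPM in tissue and 7.88 to 71.4 CPM in lung sorts (log2 fold change -2.11, SE 0.80, adjusted p = 0.0417).

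Oligodendrocyte genes were higher in tissue in 22 of 22 tested, with and without the tissue of pig 12829. MBP, myelin basic protein, had 4108, 7628, 3781 and 3653 CPM in tissue and 194, 74.3 and 178 CPM in lung sorts (log2 fold change -5.00, SE 0.51, and -4.70 without pig 12829). MOG, a protein of the outer myelin surface, had a log2 fold change of -7.70 (-7.37 without pig 12829), and OLIG2, a lineage factor, had no count in lung sorts (at least 284-fold higher). The tissue of pig 12829 was the highest of the 4 for MBP and MOG.

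Vascular genes were higher in tissue in 13 of 16 tested but in 3 with the pig as a block. PDGFRB, the pericyte receptor, had 42.5, 38.5, 44.4 and 64.6 CPM in tissue and no count in lung sorts (at least 631-fold higher). CLDN5, the tight junction protein of brain endothelium, had a log2 fold change of -4.28 and an adjusted p of 0.122 with the pig as a block, and the efflux pump ABCB1 was not called, at 45.3 to 63.5 CPM in lung sorts and 16.8 to 22.8 CPM in tissue (log2 fold change 1.52). Red cell genes summed to 5.12 to 31.9 CPM in lung sorts and 17.7 to 42.7 CPM in tissue, and HBB was not called (log2 fold change -0.89), but was higher in tissue without the lung sort of pig 12829 (-2.11).

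Of the 12 named genes with the largest fitted change toward tissue, PTN, a secreted growth factor, had 324, 440, 278 and 370 CPM in tissue and no count in lung sorts, and was at least 4690-fold higher. TNR, a matrix protein of the brain, and FEZ1, a transport protein of axons, were at least 4630-fold and 4290-fold higher. In microglia these 3 genes stood at means of 1.70 to 7.72 CPM.

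Of 18 microglial identity genes, 13 were tested, with 2 higher in lung sorts (C3 and TGFBR1, the latter a TGF-β receptor with a log2 fold change of 2.33) and 3 higher in tissue, near the shares of all tested genes (12.8% and 22.5%). SALL1 had 0.248, 0.316 and 0.256 CPM in lung sorts and 84.2, 123, 67.1 and 79.7 CPM in tissue (log2 fold change -8.33, SE 0.33), with a microglia mean of 396 CPM. ST18, a zinc finger factor, had no count in lung sorts and 74.3, 152, 61.4 and 55.5 CPM in tissue (at least 1140-fold higher), and its 67.2 CPM in microglia did not differ from tissue by the test. P2RY12, the ADP receptor of microglia, had 3.72, 1.21 and 3.22 CPM in lung sorts and 20.9, 22.1, 14.9 and 12.2 CPM in tissue (log2 fold change -2.68, SE 0.44) beside 532 CPM in microglia. CX3CR1 was not called (log2 fold change -1.24, SE 0.62), with 4.49, 14.8 and 1.79 CPM in lung sorts, but was higher in tissue without the lung sort of pig 12829 (-2.38). TREM2 and TMEM119 were under the filter, with 0.496 to 4.54 CPM and 5.49 to 7.80 CPM in lung sorts. Every lung sort lay below every tissue sample for SALL1, ST18 and P2RY12.

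Of 39 lipid genes, 28 were tested, with 4 higher in lung sorts and 7 higher in tissue, near the shares of all tested genes (12.8% and 22.5%). PLTP, the phospholipid transfer protein, had 1.10, 2.45 and 2.60 CPM in lung sorts and 75.9, 64.9, 52.5 and 72.3 CPM in tissue (log2 fold change -5.01, SE 0.35) beside 1274 CPM in microglia. The cholesterol exporter ABCA1 (-2.36), the fatty acid-sensing receptor PPARA (-2.48), the desaturase SCD (-3.57) and the brain fatty acid-binding protein FABP7 (-5.01) were also higher in tissue. APOE, the lipid carrier, had 560, 761 and 1688 CPM in lung sorts and 1137, 1201, 984 and 1417 CPM in tissue, and the groups overlapped (log2 fold change -0.23, SE 0.37). FABP5, another fatty acid-binding protein, was 1.55 higher in lung sorts on the log2 scale, short of the fold threshold.

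Of 26 glycolysis genes, 25 were tested, with 3 higher in lung sorts, 3 higher in tissue and 19 neither, against 12.8% and 22.5% called among all genes. SLC2A3, a glucose transporter, had 196, 167 and 151 CPM in lung sorts and 30.5, 29.9, 39.4 and 34.6 CPM in tissue (log2 fold change 2.35, SE 0.14) and was lung-specific, as was the hexokinase HK3 (3.61), while the lactate exporter SLC16A3 was common (3.40). The muscle-type phosphofructokinase PFKM (-5.10), the neuronal enolase ENO2 (-6.47) and the mitochondrial kinase PDK4 (-4.20) were higher in tissue. LDHA was 1.84 higher in lung sorts without being called, and PKM and GAPDH differed by -0.40 and -0.62.

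**Figure D5:**
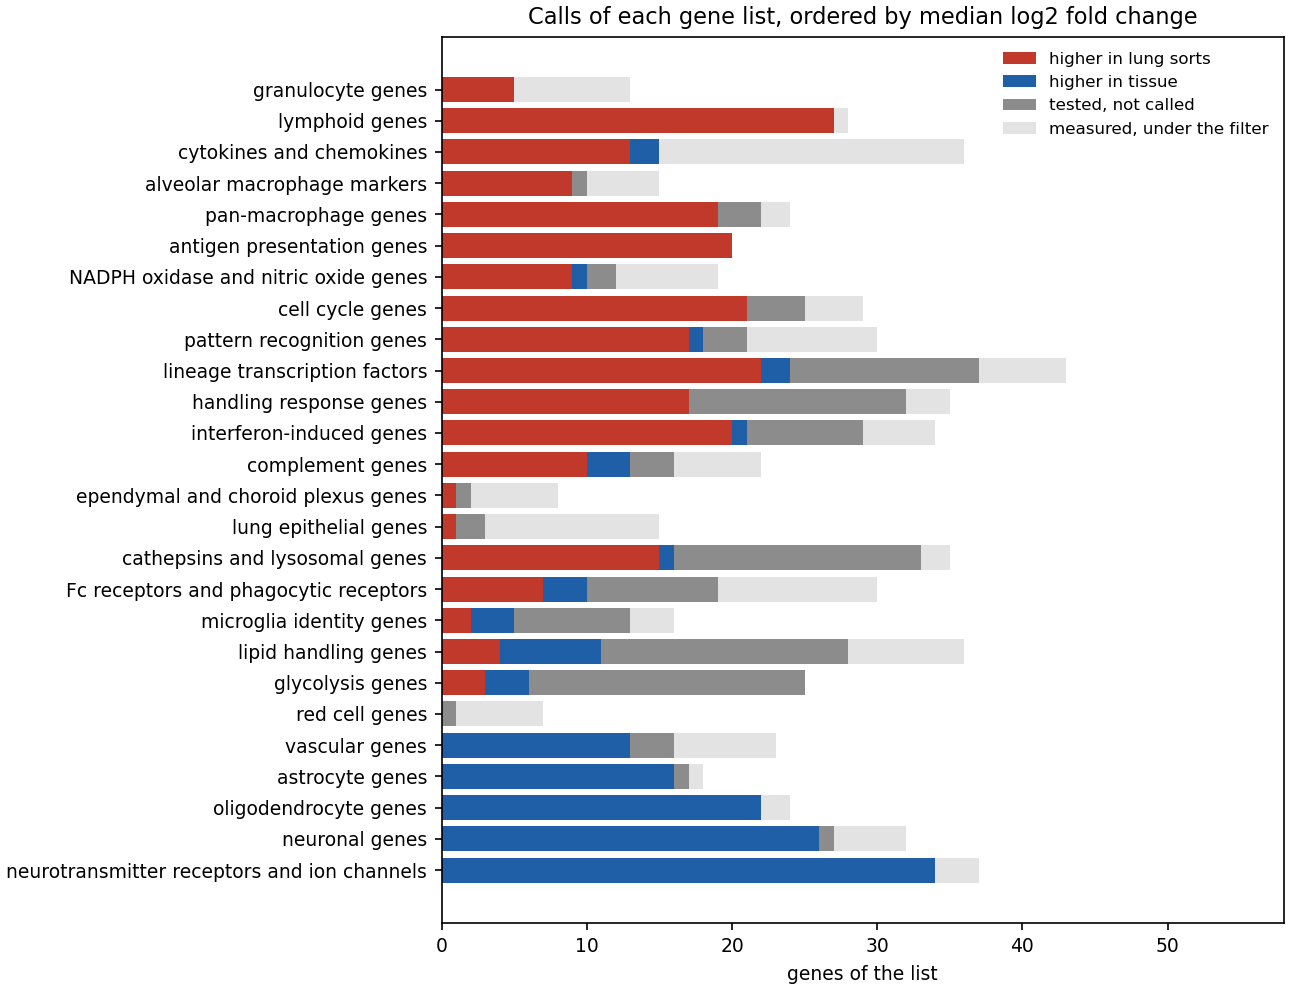
Number of genes (x axis) of each of 26 lists, ordered by the median log2 fold change of the tested genes: higher in lung sorts (red), higher in tissue (blue), tested and not called (dark grey) and under the filter (light grey). The lymphoid (27 of 27) and antigen presentation lists (20 of 20) are wholly red, the receptor and channel list (34 of 34) and the oligodendrocyte list (22 of 22) wholly blue among the tested genes, and the lipid and glycolysis lists are mostly grey.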

How the data were processed

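RNA was sequenced as 50 bp paired reads from stranded total RNA libraries. Raw counts per gene were deposited with 1 column per sample. Before that, trimming was done by the authors in BBtools 38.67, alignment in HISAT2 and quantification in StringTie, on the Sscrofa11.1 build and the annotation of Ensembl release 99. The strand setting of the counting is not given in the sources used here, so overlapping genes are uncertain, as are related genes that share reads. Symbols were matched for 15467 of 31907 gene IDs, and positions came from RefSeq by symbol.

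Genes that exceeded 10 CPM in every sample of a group were kept and scaled by TMM. Their differences were tested by the robust quasi-likelihood method of edgeR 4.0.16 (R 4.3.3), with Benjamini-Hochberg adjustment. The 7 samples entered the contrast of lung sorts with tissue, and all 31 entered the contrasts with microglia (11633 genes). Levels used TMM factors of all 31 samples. A floor of 3 counts per library set the bounds, and intervals cover counting error only. The scripts were tested on simulated data. The gene lists (26 lists, 606 of 697 symbols matched) and the samples compared were chosen with earlier results of these data known. Any list member could be named, together with the genes of largest change in each direction and class.

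Pigs 12821 and 12829 gave both a lung sort and tissue. Same-pig deviations of lung sort and tissue correlated by -0.00347 and 0.00246 across genes. Fits with the pig as a replicate block (fixed in edgeR, random in limma-voom 3.58.1) used all 31 samples. Over these, the limma-voom fit estimated a within-pig correlation of 0.205. Other alternatives were DESeq2 1.42.0, limma-voom, RLE or no factors, other filters and thresholds, and leaving out each sample. The 3 and 4 samples came from separate animals of each group. Some genes are not reported here.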

Additional observations from a re-analysis of the deposited data

Results flagged for a closer look

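In groups of 4 to 10 samples, 72 sets of values were examined for a sample that lay apart from the rest of its group (Dixon's test), which chance gives in about 1 of 20 sets. The 8 values below lay apart, all in tissue. The 3 lung sorts were too few to be examined. Tissue of pig 12829 held 6 of them: MBP at 7628 CPM and the oligodendrocyte list at 28340 CPM were its high myelin values, the ependymal and choroid plexus list summed to 100.8 CPM, ADGRE1 stood at 0.0579 CPM and S100A12 at 0.116 CPM where the other 3 had none, and C1QA at 11.06 CPM lay just under the other 3. MS4A1 stood at 0.0611 CPM in tissue of pig 12821, where the other 3 had none. CCL5 stood at 1.07 CPM in tissue of pig 12847. The ADGRE1, S100A12 and MS4A1 values rest on 2 to 4 counts, and with none in the other 3 samples any count would lie apart.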

How the results depend on the processing

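The counts of 1405 and 2479 genes stayed within 1.5 times under limma-voom (1371 and 2525), DESeq2 (1367 and 2534), the test against the fold itself (1032 and 2061), RLE factors (1367 and 2534), no factors (1528 and 2373, with the median of all genes shifted by 0.162 on the log2 scale), an adjusted p under 0.05 (1406 and 2507), all 31 samples in 1 model (1337 and 2104) and TMM factors of all 31 samples (1405 and 2491, chosen after seeing the data). Fewer or no genes filtered gave 2438 and 5613 genes (filterByExpr) and 2483 and 6168 (no filter), because 21513 and 29851 genes were then tested, with 1022 and 1081 lung-specific and 461 and 453 unresolved genes. A fold over 2 gave 2669 genes higher in lung sorts, with 1167 common, 252 graded, 863 lung-specific and 387 unresolved. Graded genes numbered 46 under limma-voom and 25 in the test against the fold, where lung-specific genes numbered 323. Classed by levels alone (over 10 CPM in all 24 microglia, or under 1 CPM in all), 55 genes were lung-specific and 649 unresolved.

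When the pig entered edgeR as a replicate block, 1203 and 1797 genes were called (1102 and 1624 of them shared with the fit without it), lung-specific genes fell to 253, and vascular genes higher in tissue to 3 from 13. The pig 12984, with a lung sort alone, then adds nothing to the contrast. As a random effect in limma-voom the block gave 1398 and 2510. Of 136 named genes with a call, 126 were called with the block in edgeR, and those lost stand in the text. The block changed the calls of single genes counted higher in tissue in the pattern recognition, interferon-induced, NADPH oxidase and cathepsin lists from 1 to 0.

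Leaving out each sample in turn gave 1397 to 1454 genes higher in lung sorts, 2474 to 2575 higher in tissue, 588 to 614 common, 65 to 71 graded, 499 to 535 lung-specific and 229 to 258 unresolved genes. Of the 136 named genes with a call, 31 moved by over 1.5-fold when 1 sample was left out, most of them genes with hardly any count in the lower group, such as SNAP25 (-17.33 without the lung sort of pig 12821) and ADGRE1 (14.74 without the tissue of pig 12829). CD9 changed direction, from 0.35 to -0.41 with the block and to -0.29 without the lung sort of pig 12984 (0.58 without the tissue of pig 12829). Of 3624 values of single genes under alternatives, 3555 kept direction and call, 37 lost the call, 30 gained it and 2 reversed. The causes were not tested. The 3 lung sorts and 4 tissue samples allow an exact permutation p of no less than 0.0571 for a single gene.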
